A study of Mus musculus with 15 samples.

Results

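The comparison described here set the ribosome-protected fragments (RPFs) recovered with Rps27-FLAG ribosomes against all RPFs of the same cells. Of the 15 libraries of the series, 6 belong to it: an IP library and a total library from each of 3 clones, and every IP library was paired with the total library of its own clone. The cells were E14Tg2a.4 mouse embryonic stem cells (mESCs), in which both copies of Rps27 carried a C-terminal 3xFLAG tag behind a 2xGGGS linker, inserted with CRISPR. The clones 2b12, 2c3 and 2c4, called clones 1, 2 and 3 below, were selected separately. The RPFs of libraries with one replicate number were pooled for library preparation, so that the clone and its preparation cannot be told apart. A second set of 6 libraries, built in the same way from 3 clones with the tag on the paralog Rps27l, served as the comparison line, and 3 libraries from untagged WT cells held total RPFs alone. An IP from untagged cells was not analysed here, so the values do not separate capture by the tag from RNA that stays on the beads.

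In ribosome profiling, RNase trims each mRNA down to the piece that a ribosome covers, and the number of pieces on a coding sequence (CDS) reports how many ribosomes occupied it. Cells were treated with cycloheximide, which stalls elongating ribosomes, before lysis, and the anti-FLAG beads were given ribosomes that had been pelleted from digested lysate and pre-cleared on IgG beads. Rps27 (eS27) is a protein of the small ribosomal subunit. Cytosolic ribosomes carry either Rps27 or its near-identical paralog, Rps27l. Mitochondria translate their own few mRNAs with a separate ribosome whose proteins come from other genes, so that neither paralog is part of it.

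The tag sits at the end of the Rps27 gene, and the 2 sites cut to place it are shown because they set where the modified allele starts and ends. Each is given 5′ to 3′ as GRCm38 reads on the minus strand, which is the coding strand, with the PAM in capitals.
First site: ttccaggatgctccttcaggAGG
Second site: cttgtttaactggtagcaagTGG
The lower-case part of the first lies at chr3:90212740-90212759, across the start of the last exon (exon 4, chr3:90212671-90212753), with 14 of its 20 bases in coding sequence. The second lies at chr3:90212640-90212659, 12 bases beyond the annotated transcript end. The stop codon, at chr3:90212725-90212727, is between them. Expression of the tagged gene itself could not be read from these data: Rps27 and its retrogene copy Rps27rt are listed with 0 counts in all 15 libraries, whose counts come from uniquely placed reads. Rps27l was measured, at 162, 194 and 185 normalized CPM (counts scaled to library size) in the IP libraries of clones 1 to 3 and at 145, 157 and 156 in their total libraries.

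The IP libraries held 4477090 to 6673935 counts and the total libraries 6313827 to 7762727. Per 1000 nt of CDS, the stem cell transcripts Pou5f1, Sox2, Nanog, Esrrb, Zfp42 and Dppa5a lay between 221 and 1320 normalized CPM in all 6 libraries. Differentiation markers were far lower: Gata6, Sox17, Foxa2, T and Afp reached 1.15 at most, Hbb-bs was at 0, Pax6 ranged from 1.46 to 15.3 and Krt8 from 15.5 to 28.7. Clone 1 stood apart from the others. Over all transcripts its libraries differed from those of clones 2 and 3 by a chi-squared per degree of freedom of 6.94 to 8.05, whereas clones 2 and 3 differed by 1.8 in the IP and 2.23 in the total libraries.

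Of 10085 transcripts tested with the clone as a block, 4197 differed between IP and total RPFs at an adjusted p under 0.05, which is 41.6% (edgeR quasi-likelihood test). Of these, 1996 were higher in the IP (19.8%) and 2201 lower (21.8%), and 4062 of the 4197 had the same sign in all 3 clones. The differences were small: their median size was 0.24 on the log2 scale, and 340 exceeded 1.5-fold. The blocked design carries many of these calls. Without the clone as a block 542 transcripts passed (5.37%), 44 higher (0.436%) and 498 lower (4.94%), and all 542 were among the 4197 with the same sign. DESeq2 with the block called 1716. With 3 pairs of libraries the spread of a single transcript is poorly known, and the fit took it from the trend over all transcripts, so that small adjusted p values reflect that shared estimate.

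CDS length ordered the transcripts more than any other property examined. Across transcripts, Spearman's rho between CDS length and the log2 fold change was -0.562, against 0.0694 for GC content and 0.0832 for mean CPM. With transcripts in 10 groups of equal number by length, medians fell from 0.20 in the shortest group (75 to 555 nt) to -0.31 in the longest (3639 nt and more), and clone by clone the same 2 medians were 0.19, 0.21 and 0.21 against -0.30, -0.31 and -0.30. In the shortest group 520 transcripts were higher in the IP and 4 lower; in the longest, 33 were higher and 655 lower. Among 91 transcripts with a CDS of at least 9000 nt the median was -0.55, with 71 lower and 0 higher.

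**Figure D1:**
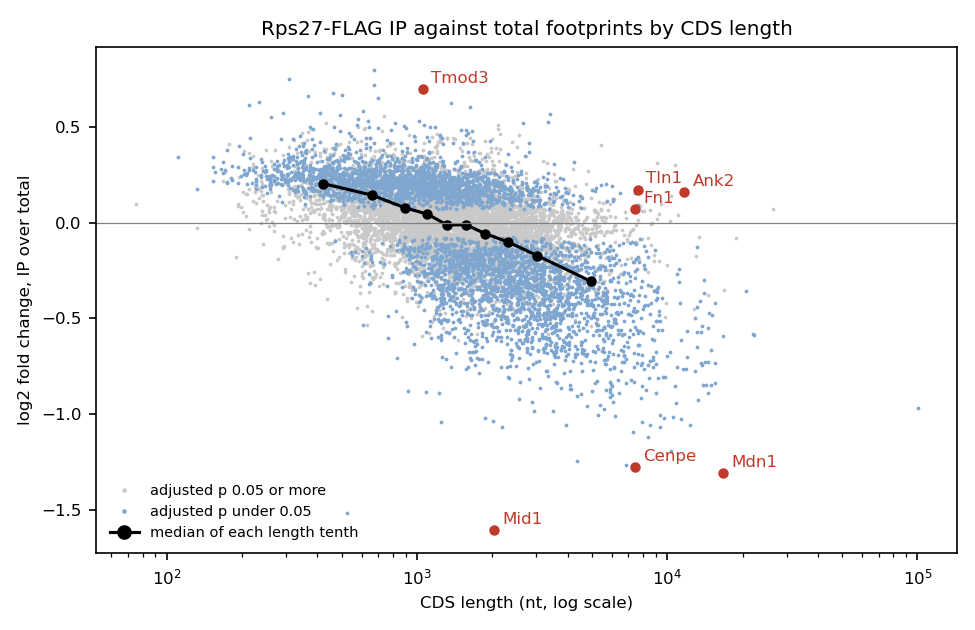
Each point is 1 transcript, with its CDS length in nucleotides on a log axis and its log2 fold change (Rps27-FLAG IP over total, 3 clones) on the other; blue points passed an adjusted p of 0.05 and black points are the medians of the 10 length groups. The medians descend from 0.20 to -0.31, with Tmod3 above the cloud and Mid1, Cenpe and Mdn1 below it.

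Apart from the mitochondrially encoded ones, the largest fall among transcripts with a mean of at least 20 CPM was that of Mid1, a microtubule-bound ubiquitin ligase (chrX:169685199-169990798). It was read at 16.1, 18.2 and 12.2 CPM in the IP libraries of clones 1 to 3 and at 56.7, 51.2 and 31.1 in the total libraries, a log2 fold change of -1.61 (SE 0.091, adjusted p = 2.88e-67). Every total library lay above every IP library. Mid1 has a CDS of 2040 nt, close to the middle of the range, unlike most of the transcripts that fell furthest.

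Mdn1, the giant ATPase that drives maturation of the large ribosomal subunit (chr4:32657119-32775217), has a CDS of 16746 nt. Its IP values were 360, 420 and 408 CPM against 875, 1060 and 1010 in total RPFs, a log2 fold change of -1.31 (SE 0.031). Cenpe, a kinesin of the kinetochore (chr3:135212537-135273611), stood at 137, 131 and 136 CPM in the IP and at 328, 328 and 321 in total RPFs, a log2 fold change of -1.28 (SE 0.036, adjusted p = 1.39e-268). Neither transcript had overlapping groups. The 5 that followed were the centrosome linker protein Cep250 at -1.09, the catalytic subunit of DNA polymerase zeta Rev3l at -1.07, the Ras regulator Nf1 and the DNA-dependent protein kinase Prkdc at -1.06 each, and the myosin Myo9a at -1.04. All 5 have a CDS of 7305 nt or more.

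Tmod3, which caps the slow-growing ends of actin filaments (chr9:75497707-75559657), had the largest rise among transcripts with a mean of at least 20 CPM and 1 sign in all clones. Its IP values were 161, 136 and 137 CPM and its total values 103, 80.3 and 82.9, a log2 fold change of 0.70 (SE 0.043, adjusted p = 1.08e-54), with no overlap between the groups. By the same rule the next 7 rises were between 0.42 and 0.53: the CDK2-interacting protein gene Cinp, the UDP-N-acetylglucosamine synthesis enzyme gene Uap1, Tmem47, Ccdc124, BC031181, Rpl36a and the zinc finger gene Zscan26. Values for Rpl36a are uncertain, since ribosomal protein genes have many pseudogene copies and reads with several placements were left out.

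Transcripts read by mitochondrial ribosomes were depleted more strongly than any nuclear one. All 13 mitochondrially encoded mRNAs fell, with log2 fold changes from -3.64 for mt-Co1 to -5.11 for mt-Nd3 and a median of -4.19, an 18.3-fold fall. The furthest of the 10085 other transcripts in the same fit was at -1.6. Of all transcripts in that fit 42.1% were called, and 21.1% were called lower.

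mt-Co1, which encodes a core subunit of cytochrome c oxidase, had 136, 157 and 112 CPM in the IP libraries and 1730, 1800 and 1560 in the total libraries (log2 fold change -3.64, SE 0.038). mt-Nd3, a subunit of respiratory complex I, had 1.74, 3.43 and 4.14 CPM against 102, 102 and 104 (log2 fold change -5.11, SE 0.11). For both genes the adjusted p was too small for the program to hold. By complex, the cytochrome c oxidase transcripts mt-Co2 and mt-Co3 fell 20.3-fold and 17.8-fold, the ATP synthase transcripts mt-Atp6 and mt-Atp8 21.5-fold and 14.2-fold, and the cytochrome b transcript mt-Cytb 16.6-fold. Complex I transcripts spanned the range, from 16.6-fold for mt-Nd5 and 17.2-fold for mt-Nd1, through 18.3-fold for mt-Nd4, 19.5-fold for mt-Nd2, 24.1-fold for mt-Nd6 and 31.5-fold for mt-Nd4l, up to 34.6-fold for mt-Nd3.

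Together these mRNAs took 0.704%, 0.699% and 0.634% of the counts in the total libraries and 0.0412%, 0.0471% and 0.0347% in the IP libraries of clones 1 to 3. The IP share was thus 5.86%, 6.74% and 5.47% of the total share, a mean log2 ratio of -4.06 ± 0.153 (SD, n = 3 clones).

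**Figure D2:**
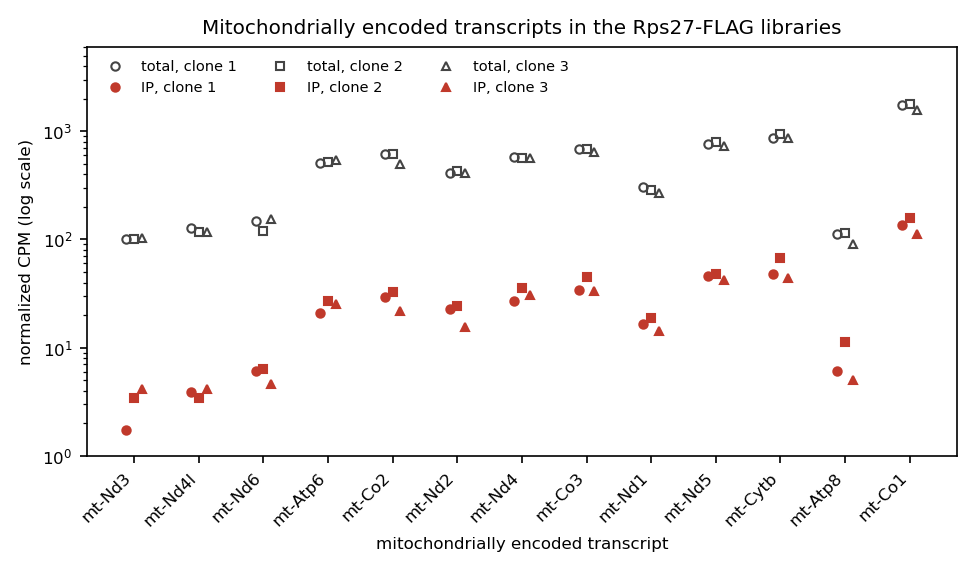
Normalized CPM (log axis) of the 13 mitochondrially encoded transcripts in each of the 6 Rps27-FLAG libraries, open grey symbols for total and filled red symbols for IP, one symbol shape a clone; transcripts run from the largest fall, mt-Nd3, to the smallest, mt-Co1. The IP symbols lie below the total symbols in every transcript and clone.

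The falls of long transcripts and the rises of short ones make classes of genes differ by their size alone. A smooth trend of expression on CDS length was therefore removed from each library, after which a value of 0 marks a transcript with the IP-to-total ratio that is usual for its length, and rho with CDS length was 0.0155. Of 10082 transcripts with a known length, 3162 differed beyond length (31.4%), 1853 of them higher (18.4%) and 1309 lower (13%), and 3051 had the same sign in all 3 clones. Without the clone block 27 passed (0.268%), 9 higher (0.0893%) and 18 lower (0.179%), so the class counts below rest on the pairing by clone: without it 0 hnRNP, SR, matrix, Slc25, Rab, Arf or pluripotency transcripts were called. In the blocked fit the median size of called differences was 0.23 on the log2 scale, and 91 passed 1.5-fold. Of the transcripts higher before the adjustment, 1129 of 1995 stayed higher beyond length and 2 were lower. Of those lower before it, 1175 of 2201 stayed lower and 90 were higher. Another 634 rose and 132 fell beyond length alone.

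By the same rule the largest rises beyond length included long mRNAs for adhesion and cell-surface proteins. Tln1, which encodes talin, the link from integrins to actin (chr4:43531519-43562422, CDS of 7623 nt), had 519, 509 and 525 CPM in the IP and 477, 454 and 443 in total RPFs. Its groups did not overlap. The log2 fold change was 0.17 as measured and 0.58 beyond length (SE 0.031, adjusted p = 3.57e-73). The other rises were Zc3h12c at 0.68, Tmod3 at 0.67, the membrane skeleton protein ankyrin-B (Ank2) at 0.67, epiplakin (Eppk1) at 0.62, the actin-bundling protein palladin (Palld) at 0.58, and Frem2, a basement membrane protein, and the receptor Notch2 at 0.56 each. Clone 1 contributed little to Zc3h12c, with a length-adjusted log2 ratio of 0.07 against 0.78 and 0.99 in clones 2 and 3.

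At a mean of at least 20 CPM the largest falls beyond length were Mid1 at -1.51, Cenpe at -0.88, the centromere protector shugoshin 2 (Sgo2a) at -0.77, the splicing cofactor Son at -0.73, Mdn1 at -0.71, Cep250 at -0.69, the filopodial myosin Myo10 at -0.65 and the kinase anchor Akap8l at -0.65. The value of Son, -0.75 as measured, was adjusted for the CDS of the 1 listed transcript, 1362 nt, and holds only for that length. Sgo2a was read at 76.6, 87.7 and 99.4 CPM in the IP and at 162, 169 and 188 in total RPFs, again without overlap. A length-adjusted ratio below 0 in every clone was a condition for entering this list of 8.

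**Figure D3:**
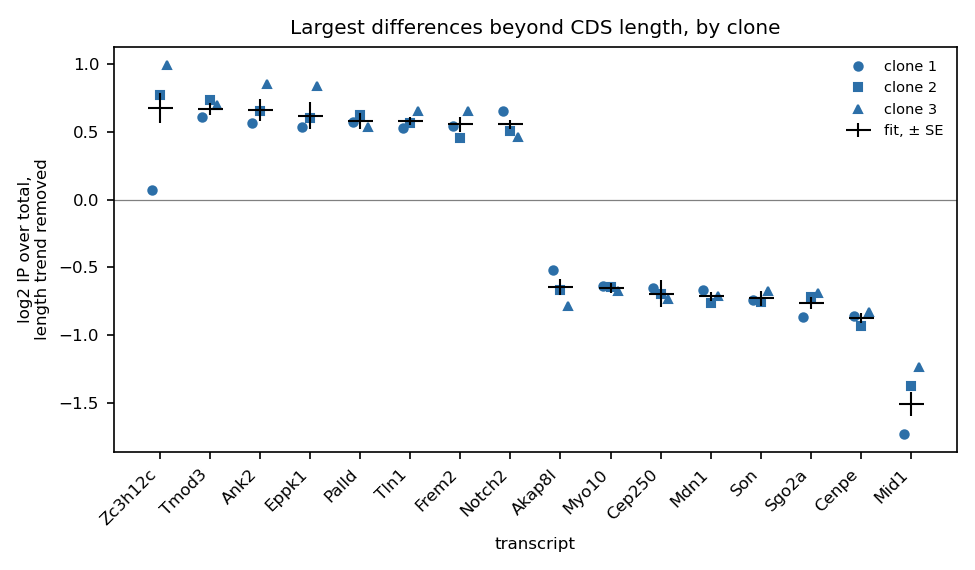
Length-adjusted log2 IP-over-total ratio of the 8 largest rises and 8 largest falls among transcripts with a mean of at least 20 CPM; blue symbols are the 3 clones, and black marks are the fitted value with its SE. The 16 transcripts were picked with 1 sign in all clones, and the spread is widest for Zc3h12c (0.07 to 0.99).

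Functional classes are described below by how many of their tested members rose or fell beyond length, against 18.4% and 13% of all transcripts, and by their median, against 0.02 for all transcripts. Members of a class are different genes measured in the same libraries, and a few genes are in more than one class. The share called also depends on read depth, which differed between classes. Median CPM was 749 for elongation and termination factors and 418 for hnRNP and SR proteins, but 23.9 for Rab and Arf GTPases and 18.8 for Slc25 carriers. Counts of classes with unlike depth are therefore not directly comparable.

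Many mRNAs for proteins that bind and process RNA were higher. Of 32 tested hnRNP and SR proteins, which package and splice pre-mRNA, 29 rose beyond length, 0 fell and 3 did not pass, with a median of 0.18 (0.14, 0.20 and 0.22 in clones 1 to 3). With 1 clone left out, 24 to 27 rose. Hnrnpk had 1600, 1990 and 1960 CPM in the IP and 1450, 1590 and 1660 in total RPFs, and rose by 0.26 (SE 0.033, adjusted p = 1.99e-13). Its groups overlapped, and the rise appeared within each clone. Hnrnpu rose by 0.22 and Hnrnpm by 0.30. Among the Sm, Lsm, SF3 and Prp proteins of the spliceosome, 24 of 52 rose and 6 fell (median 0.09), with Sf3b1, the branch-site protein, at 0.43 and Snrnp70, the U1 protein, at -0.38.

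RNA helicases of the DEAD-box and DEAH-box families gave 25 rises and 6 falls among 50 (median 0.14). Ddx5 rose by 0.28, Dhx9 by 0.33 and the splicing helicase Dhx8 by 0.37. Before the length adjustment 15 had been higher and 17 lower. Without clone 1 the falls were 2 and without clone 3 they were 3.

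Of 9 elongation and termination factors, 8 rose and 1 fell (median 0.11), but without clone 2 or without clone 3 only 3 rose. In the fit of all clones Eef1a1, which delivers aminoacyl-tRNA, rose by 0.24, the translocase Eef2 by 0.12 and the termination factor Gspt1 by 0.25. Initiation factors gave 22 rises and 4 falls among 38 (median 0.11), led by Eif5b, which joins the subunits, at 0.40 and the scaffold Eif4g1 at 0.33, while the helicase Eif4a1 rose by 0.13. Among 23 aminoacyl-tRNA synthetases and their scaffold proteins, 12 rose and 2 fell (median 0.08), with Aars at 0.36 and Iars at 0.25. Without clone 3 the rises were 12 among initiation factors and 6 among synthetases. In the endoplasmic reticulum, 17 of 37 translocation, glycosylation and folding proteins rose and 2 fell (median 0.08), among them the chaperones Hspa5 at 0.29 and Hsp90b1 at 0.25.

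Regulators of the stem cell state were retained as a group. Of 28 tested, 19 rose and 1 fell, with a median of 0.15 and clone medians of 0.11, 0.18 and 0.14; the same counts, 19 and 1, were found without clone 1. The corepressor Trim28 had 2600, 3200 and 3240 CPM in the IP and 2380, 2710 and 2870 in total RPFs and rose by 0.33 (SE 0.036, adjusted p = 1.24e-17). Sall1 rose by 0.26 and the RNA-binding protein L1td1 by 0.12, although neither differed before the adjustment (0.01 and -0.01).

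Chromatin remodelling proteins changed sides once length was taken into account. As measured, 5 of 39 were higher and 18 lower, and beyond length 18 rose and 1 fell (median 0.13). Their median CDS was 4677 nt. Chd4, the ATPase of the NuRD complex, went from 0.11 to 0.45 and Arid4b from 0.16 to 0.41, whereas the remodeller Hells, at 0.02, did not pass. Histone lysine methyltransferases and demethylases were alike, with 2 higher and 21 lower as measured and 15 rises and 6 falls beyond length (median 0.09), and Kdm5b at -0.00 did not pass. Without clone 1, 3 of these enzymes fell, and with length removed by the medians of its 10 groups 4 remodelling proteins fell.

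The highest class median belonged to basement membrane and matrix proteins, which are secreted and mostly long (median CDS 5358 nt). As measured, 4 of 35 were higher and 8 lower. Beyond length, 19 rose, 2 fell and 14 did not pass, with a median of 0.25 and clone medians of 0.22, 0.27 and 0.30; when length was removed by the medians of its 10 groups instead, the class median was 0.18. Fibronectin (Fn1) had 2700, 3770 and 3650 CPM in the IP against 2680, 3430 and 3500 in total RPFs, and its length-adjusted log2 fold change was 0.47 (SE 0.037, adjusted p = 1.57e-34). The groups of Fn1 overlapped and its measured fold change, 0.07, did not pass. Nidogen-2 (Nid2) rose by 0.22.

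**Figure D4:**
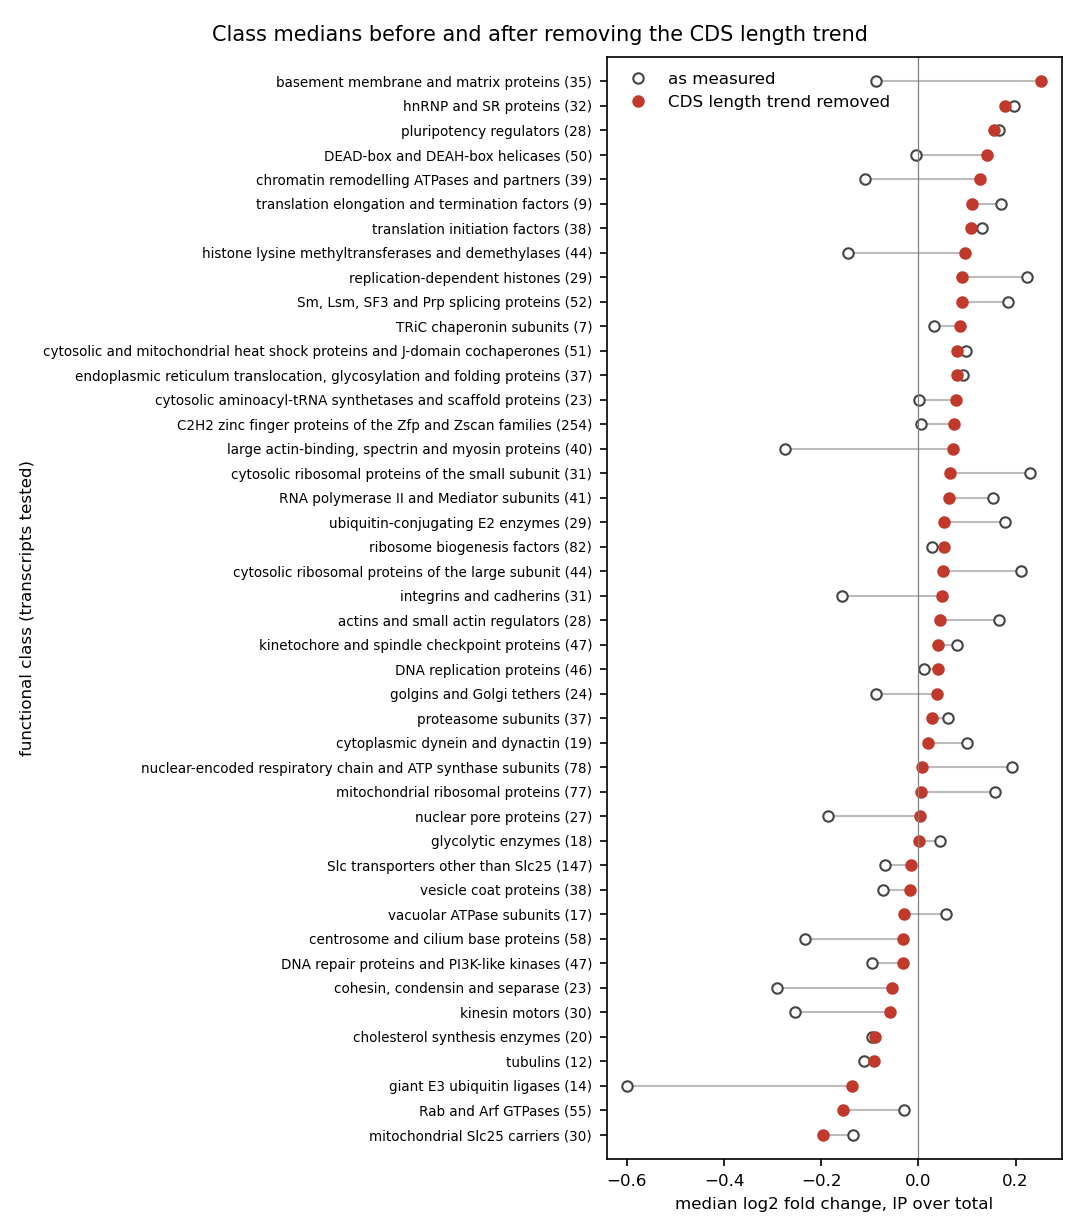
Median log2 fold change (Rps27-FLAG IP over total) of each functional class as measured (open circles) and with the CDS length trend removed (red circles); the number of transcripts tested is in brackets. Classes run from matrix proteins at 0.25 at the top to Slc25 carriers at -0.20 at the bottom, and the giant E3 ligases move from -0.60 to -0.14.

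At the other end, mitochondrial Slc25 carriers, which move metabolites across the inner mitochondrial membrane, had a median of -0.20 (-0.16, -0.16 and -0.21 by clone). Of 30 tested, 8 fell and 1 rose, and without clone 2, 5 fell. The phosphate carrier Slc25a3 was read at 533, 556 and 569 CPM in the IP and at 661, 653 and 693 in total RPFs, a length-adjusted log2 fold change of -0.30 (SE 0.031, adjusted p = 7.21e-20). Its groups did not overlap. Slc25a39 and Slc25a15 fell by 0.35 and 0.31 on the log2 scale. The most abundant carrier, the ADP/ATP exchanger Slc25a5, was at 0.07 and did not pass.

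Small GTPases of the Rab and Arf families, which direct vesicle traffic, had 22 falls and 0 rises among 55 (40%), with a median of -0.16; without clone 1, 16 fell and 0 rose. They have a short CDS, with a class median of 612 nt, and as measured 10 were lower and 5 higher. Rab5c, a GTPase of early endosomes, had 70.1, 56.1 and 61.9 CPM in the IP and 80.1, 83.7 and 70.8 in total RPFs, without overlap, and fell by 0.43 beyond length (SE 0.054, adjusted p = 4.18e-13). Rab5b fell by 0.43 and Arf1 by 0.13, and Rab1a, at -0.04, did not pass.

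Ubiquitin ligases of giant size were lower both ways. As measured, 13 of 14 were lower and 0 higher, with a median of -0.60, and beyond length 9 fell and 1 rose, with a median of -0.14. That median depends on how length is removed in the region of very long CDS: by the medians of the 10 length groups it was -0.30, with 11 falls. Herc2 fell by 0.33 and Hectd4 by 0.39, and Trip12 rose by 0.32.

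Among 20 cholesterol synthesis enzymes 5 fell and 1 rose (median -0.09), including the synthase Hmgcs1 at -0.09. Without clone 1 the median was -0.02, and 3 fell without clone 1 or without clone 3. Of 12 tubulins 3 fell and 0 rose (median -0.09). The abundant Tubb5 was at 0.02 and did not pass, and Tuba1c fell by 0.35, although alpha-tubulin genes are so alike that reads unique to one of them are few.

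Cohesin, condensin and separase proteins, which hold and compact chromosomes, had 19 lower and 0 higher of 23 as measured, and 11 falls and 4 rises beyond length (median -0.05). The separase Espl1 fell by 0.46, the condensin subunit Ncaph by 0.42 and the cohesin ring subunit Smc3 by 0.18. Kinesins went from 20 lower and 0 higher of 30 to 8 falls and 4 rises (median -0.06), with Kif14 at -0.57 and the spindle motor Kif11 at 0.21. The heavy chain of cytoplasmic dynein, Dync1h1, also fell, by 0.30.

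For another set of classes the medians became smaller once length was removed. Cytosolic ribosomal proteins, whose mRNAs are among the shortest, were higher in the IP for 34 of 44 large subunit and 26 of 31 small subunit genes, with medians of 0.21 and 0.23. Beyond length the counts were 12 rises and 3 falls, and 12 rises and 1 fall, with medians of 0.05 and 0.07. The rises were 27.3% of large and 38.7% of small subunit genes, above the 18.4% of all transcripts. The falls were 6.82% and 3.23%, below 13%. These counts depended on every clone: without clone 1, 19 large subunit and 17 small subunit genes rose, without clone 2, 4 and 1, and without clone 3, 2 and 2. The large subunit median by clone was -0.01, 0.13 and 0.06. Rpl3 and Rps6, at 0.01 and 0.07, did not pass beyond length, Rpl4 rose by 0.09 and Rack1, a scaffold on the small subunit, fell by 0.15.

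Mitochondrial ribosomal proteins are made in the cytosol from nuclear genes, and as measured 41 of 77 were higher and 7 lower. Beyond length 7 rose and 16 fell, with a median of 0.00. Mrps9 and Mrps27 fell by 0.39 and 0.36, and Mrpl15 rose by 0.13. The nuclear-encoded subunits of the respiratory chain and ATP synthase behaved likewise, with 54 of 78 higher and 10 lower as measured, 7 rises and 12 falls beyond length, and a median of 0.01. Sdha, at 511, 473 and 490 CPM in the IP and 656, 608 and 606 in total RPFs, fell by 0.26 without overlap of its groups, Ndufa9 fell by 0.28 and Atp5b, at -0.00, did not pass. These nuclear transcripts stand apart in size of effect from the 13 mitochondrially encoded subunits of the same complexes, which fell by 3.64 or more on the log2 scale. Without clone 2, 9 mitochondrial ribosomal proteins fell, and 2 respiratory chain subunits rose without clone 2 or without clone 3.

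Some classes split within themselves. Of 82 ribosome biogenesis factors 34 rose and 23 fell beyond length (median 0.05): nucleolin (Ncl) rose by 0.34, and the pre-ribosome proteins Heatr1 and Mdn1 fell by 0.52 and 0.71. Nuclear pore proteins gave 10 rises and 9 falls among 27, with the inner ring scaffold Nup205 at -0.55 and the basket protein Tpr, at -0.06, not passing. Among 47 DNA repair proteins and related kinases 10 rose and 16 fell, with Parp1 at 0.35 and Fancm at -0.58. Of 58 centrosome and cilium base proteins 13 rose and 14 fell, with the microtubule polymerase Ckap5 at 0.48 against Cep250 at -0.69, and without clone 3, 8 rose.

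Properties of the encoded proteins that could be computed from the annotated CDS were only weakly related to the values beyond length. Proteins without a hydrophobic stretch long enough to cross a membrane had a median of 0.03 (6946 transcripts, 20.9% higher and 12.6% lower), those with at least 1 had -0.01 (3136 transcripts, 12.8% and 13.7%) and those with 4 or more had -0.02. Those with such a stretch near the start, where a signal peptide would be, had 0.01 (1022 transcripts, 11.5% and 8.71%). The fifth of proteins richest in aspartate and glutamate had a median of 0.07 with 28.2% higher and 8.08% lower, and across all transcripts the share of those residues had a Spearman's rho of 0.112. Mean CPM, on which the power of the test depends, had a rho of 0.166.

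The FLAG peptide starts with aspartate, tyrosine, lysine and aspartate. Of the tested proteins 48 hold either these 4 residues in a row (31) or the first 3 followed, after 2 others, by the aspartate (19); Tmod3 and Itga3 hold both. Codons are shown for 5 of the 8 proteins in which it lies within the first 64 residues, chosen after values were seen to cover rises, a fall and a value near 0. Sequences are read 5′ to 3′ from GENCODE M21 transcripts, and capitals mark the 6 codons from the first aspartate on.
Tmod3, from residue 11: ttggggGACTACAAGGACCTGGATgaggac
Clasp2, from residue 11: atctgtGATTATAAAAGCTTTGATgatgag
Myo5a, from residue 30: ctcaagGATTATAAGCCTGGAGATaaagtg
Pbrm1, from residue 59: atccgaGACTATAAGGATGAACAGggcaga
Caprin2, from residue 64: ctggaaGATTATAAAGATCGCCTTaaaaat
Beyond length, Tmod3 rose by 0.67 (SE 0.043), Pbrm1, a chromatin remodelling subunit, by 0.30 (SE 0.034) and the RNA-binding protein Caprin2 by 0.24 (SE 0.058). Clasp2, a microtubule plus-end protein, was at 0.02 (SE 0.044, adjusted p = 0.767) and the myosin Myo5a fell by 0.64 (SE 0.054). The clone ratios of Tmod3 were 0.61, 0.73 and 0.70. Over all 48 proteins 15 rose (31.2%) and 10 fell (20.8%), against 18.4% and 13% of all transcripts. For the 47 other than Tmod3 the counts were 14 and 10, with a median of 0.04. Prkdc, with the stretch at residue 3838, was at -0.53. Binding of nascent chains by the antibody was not tested here. The study left Tmod3 out of its lists as a probable artifact of the pull-down. It cites reports of Tmod3 protein as a frequent contaminant of FLAG pull-downs. From this, the sequence of the FLAG-like stretch and the position of reads along the CDS, it proposes that ribosomes translating Tmod3 are captured through the emerging chain.

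The pull-down of Rps27l-FLAG ribosomes gave a second measurement, in other clones and libraries. It was not independent of the first in preparation: both lines share the parental cells and the protocol, and libraries with one replicate number were pooled. Across 10082 transcripts the length-adjusted log2 fold changes of both pull-downs had a Spearman's rho of 0.59, given as a description. Of the 1853 transcripts that rose with Rps27-FLAG, 1118 also rose with Rps27l-FLAG, which is 60.3% of the first list and 75.6% of the second. Of the 1309 that fell, 611 also fell, 46.7% and 75.3%. In the Rps27l-FLAG line 14.7% of all transcripts were called higher and 8.04% lower. Mid1 was at -1.48 and Cenpe at -0.81 in the Rps27l-FLAG line, and Tln1 at 0.45 and Fn1 at 0.46. Matrix proteins had a median of 0.24 in that line, hnRNP and SR proteins 0.17 and Rab and Arf GTPases -0.15. Other class medians lay further from those of the Rps27-FLAG line: 0.18 and 0.20 for large and small subunit ribosomal proteins, 0.20 for elongation and termination factors and -0.08 for Slc25 carriers.

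The difference between the pull-downs was tested directly, in 1 fit over 12 libraries. It passed for 150 of 10085 transcripts (1.49%), of which 14 were higher in the Rps27-FLAG pull-down (0.139%) and 136 lower (1.35%). Without the clone block 0 passed (edgeR). An unadjusted p under 0.05 was reached by 142, fewer than that threshold would pass without any difference. With CDS length removed 131 passed (1.3%), 28 higher (0.278%) and 103 lower (1.02%). Of the 14 giant ubiquitin ligases 7 were lower as measured and 0 with length removed. Golgb1, a Golgi tether (CDS of 9714 nt), fell by 1.02 with Rps27-FLAG and by 0.60 with Rps27l-FLAG, a difference of -0.45, and it passed with length removed too (adjusted p = 1.30e-04). Ribosomal protein mRNAs were the class with the most calls beyond length, with 8 of 44 large subunit and 5 of 31 small subunit genes lower in the Rps27-FLAG pull-down and 0 higher.

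Every mitochondrially encoded mRNA fell further with Rps27-FLAG than with Rps27l-FLAG, and the difference passed for 11 of 13 (median difference -0.92). The differences of mt-Atp8 (-0.50) and mt-Nd6 (-0.62) did not pass. The log2 ratio of the share of counts of all 13, IP over total, was -4.06 ± 0.153 with Rps27-FLAG and -3.24 ± 0.348 with Rps27l-FLAG (SD, n = 3 clones each). The clones of the 2 lines did not overlap. Tmod3 rose by 1.38 in the Rps27l-FLAG pull-down and by 0.70 with Rps27-FLAG, a difference of -0.71 (adjusted p = 6.11e-18). The study measured more RNA in the Rps27-FLAG IP than in the Rps27l-FLAG IP. It proposes that more free antibody sites in the latter may explain the stronger Tmod3 rise there. That account was not tested here, nor was the part of the mitochondrial share in the other differences between the lines.

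**Figure D5:**
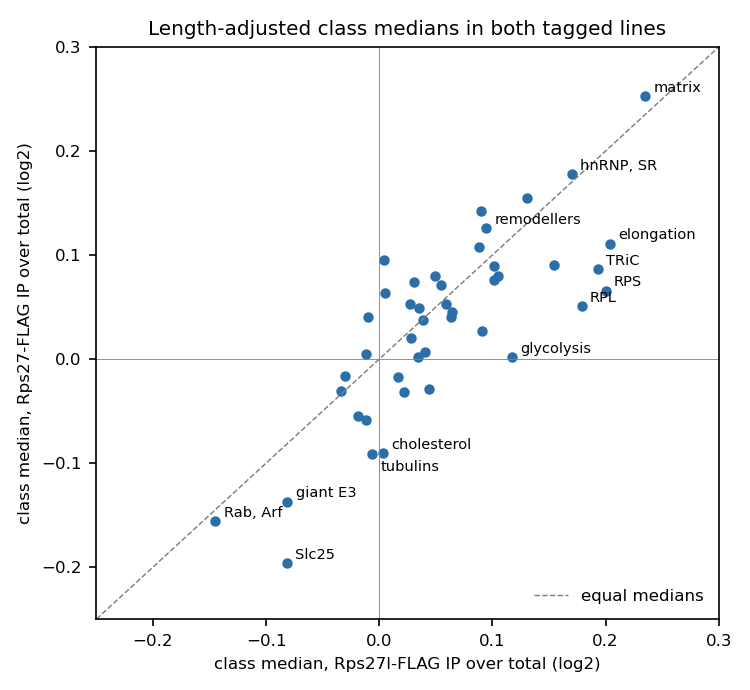
Median length-adjusted log2 fold change (IP over total) of each functional class in the Rps27l-FLAG line (horizontal) and the Rps27-FLAG line (vertical), with the dashed line where both are equal. Matrix proteins are highest in both, and ribosomal proteins (RPS, RPL) and elongation factors lie below the line while Slc25 carriers are lowest with Rps27-FLAG.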

How the data were processed

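The deposited values were raw counts of RPFs for 21727 transcripts in 15 libraries. The authors trimmed reads with cutadapt 2.4, removed PCR duplicates by molecular identifier with UMI-tools 1.0.1, discarded rRNA, tRNA and snRNA, aligned with Bowtie2 2.3.4.3 to GRCm38 transcripts (versions from the submitters' processing notes), kept unique alignments and assigned A sites to the CDS, leaving out 15 codons at its start and 5 at its end. Multicopy genes are therefore undercounted. 0 columns were left unused.

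Symbols, coordinates and CDS lengths came from GENCODE M21 (21713 transcripts matched). Transcripts over 2 CPM in at least 14 of 15 libraries were tested, without the 13 mitochondrially encoded ones, which were kept in a separate fit. They held at least 98.7% of the counts of each Rps27-FLAG library. TMM factors were computed separately for IP and total libraries (edgeR 4.0.16, R 4.3.3). The clone was a block, which the study's methods used between the pull-downs but not for IP against total: labels name the clone of each library, and residuals of IP and total of one clone correlated at 0.79, 0.468 and 0.531. Calls used a Benjamini-Hochberg adjusted p under 0.05, and SEs were derived from the quasi-likelihood F. edgeR estimated infinite prior degrees of freedom against 2 residual ones. The CDS length trend was a loess fit per library (span 0.5) entered as offsets. Per-clone ratios used a prior count of 0.5. Hydrophobic stretches were windows of 19 residues with a mean hydropathy of at least 1.6. The test was checked on simulated data whose spread was taken from the trend over all transcripts. That check cannot show how the test performs where the spread of a single transcript departs from the trend. Clones were separate selections of one parental line.

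The members, functional classes and alternatives were chosen with earlier results of these data known. Named transcripts are the 8 largest rises and 8 largest falls, measured and length-adjusted, with a mean of at least 20 CPM and 1 sign in all clones, and in each class the 2 most abundant and 2 most changed members, of which some are given. Clasp2, Pbrm1 and Caprin2 were chosen for the position of their FLAG-like stretch after values were seen. limma 3.58.1 and DESeq2 1.42.0 were alternatives. Some members of the named set are not reported here.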

Additional observations from a re-analysis of the deposited data

Results flagged for a closer look

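The IP effect differed between the Rps27-FLAG and Rps27l-FLAG lines, by the test of that difference in edgeR, for 150 transcripts and for 11 of the 13 mitochondrially encoded mRNAs. Among the transcripts named above, the log2 difference (Rps27-FLAG minus Rps27l-FLAG) was -0.71 for Tmod3, -0.45 for Golgb1, -0.41 for Akap8l, -0.37 for Nf1, -0.34 for Mdn1 and -0.32 for Tpr. Differences of -0.29 were found for Prkdc and Espl1, -0.28 for Dync1h1, -0.26 for Nup205, -0.25 for Herc2, -0.23 for Sgo2a, -0.21 for Heatr1, and -0.20 for Myo10, Rack1 and Slc25a3. It was -0.19 for Atp5b, -0.18 for Eef1a1, Hmgcs1, Rpl3 and Sdha, and -0.16 for Eef2, Eif4a1 and Tubb5. All of these named transcripts were lower with Rps27-FLAG. Tmod3 rose in both lines. With CDS length removed, the differences of Herc2 (adjusted p = 0.411, edgeR), Myo10 (0.217), Nf1 (0.14), Prkdc (0.0993), Sgo2a (0.093), Eef2 (0.0813) and Heatr1 (0.0813) no longer passed. Without the clone block 0 of the 10085 transcripts that are not mitochondrially encoded passed (edgeR). The 142 at an unadjusted p under 0.05 were fewer than that threshold would pass without any difference.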

How the results depend on the processing

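Analysis with and without the replicate block gave the widest range. The comparison as measured called 4197 transcripts with the block and 542 without it, the comparison beyond CDS length 3162 and 27, and the difference between the lines 150 and 0 (142 at an unadjusted p under 0.05; 180 by voom and limma with the block). DESeq2 called 1716 as measured. With 1 clone left out, the counts were 3378 to 3442, 2411 to 2474 and 89 to 148; without clone 3 of the Rps27-FLAG or of the Rps27l-FLAG line, 89 and 95 differences remained. The 13 mitochondrially encoded mRNAs were lower under every alternative run, also without the block, with medians from -4.30 to -4.08. All other settings (TMM over all libraries, DESeq2 size factors, voom, other filters, 12 libraries in 1 fit, other length trends) kept the counts of the first 2 comparisons within 1.5 times. No named transcript that had passed changed sign, but without the block 49 of 82 named calls as measured and 78 of 88 beyond length no longer passed, and 11 of 82 with DESeq2. The medians of nuclear pore, glycolytic, proteasome, respiratory chain, mitochondrial ribosomal and other Slc proteins, all close to 0, took the other sign under at least 1 alternative. That of large actin-binding, spectrin and myosin proteins went from 0.07 to -0.02 when length was removed by the medians of its 10 groups. Transcripts of few counts limit the comparison: the median SE of all tested transcripts was 0.08.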

Other observations

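Of all transcripts 18.4% rose and 13% fell beyond length, and the class counts here are to be read beside those shares. Actins and small actin regulators had 7 rises (25%) and 0 falls among 28 (median 0.05). Tmod3, which the study treats as a probable artifact, is among those rises. Ubiquitin-conjugating E2 enzymes had 6 rises (20.7%, near the share of all transcripts) and 0 falls among 29 (median 0.05). As measured, 19 and 17 members of these classes had been higher. Replication-dependent histones gave 6 rises (20.7%) and 0 falls among 29 (median 0.09), among them the linker histone Hist1h1a at 0.12. Their share of rises was near the 18.4% of all transcripts. Only 0 rose without clone 3, 3 without clone 2 and 2 with a GC trend removed as well. TRiC chaperonin subunits had 4 rises and 2 falls among 7, with a median of 0.09 and Cct4 at 0.20, and proteasome subunits 13 and 8 among 37. Vesicle coat proteins split evenly, with 9 rises and 9 falls among 38: clathrin heavy chain (Cltc) rose by 0.48 and the clathrin adaptor subunit Ap2m1 fell by 0.40. Of 17 vacuolar ATPase subunits 5 fell and 1 rose, and glycolytic enzymes had 6 rises and 5 falls among 18. Without clone 2 the rises were 2 among E2 enzymes and 3 among glycolytic enzymes, and 3 vacuolar ATPase subunits fell. Without clone 3, 2 E2 enzymes rose, and the falls were 0 among TRiC subunits, 4 among proteasome subunits and 3 among glycolytic enzymes.

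In the Rps27l-FLAG pull-down 11 of 18 glycolytic, 29 of 44 large subunit and 25 of 31 small subunit transcripts rose beyond length, beside 6, 12 and 12 with Rps27-FLAG. Of all transcripts 14.7% rose with Rps27l-FLAG and 18.4% with Rps27-FLAG. The difference itself passed for 1 glycolytic transcript, 8 large subunit and 5 small subunit transcripts.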
